A study of Mus musculus with 22 samples.

Results

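The regions described here were sites where ATRX, a chromatin remodeller of the SWI/SNF family, was called in both libraries of mouse embryonic stem (ES) cells depleted of TERRA, in neither scramble control library, and away from the heterochromatin mark H3K9me3. They were selected on the deposited peak lists, as peaks of ATRX TERRA KD replicate 1 that overlapped a peak of TERRA KD replicate 2 by at least 1 bp, no peak of either scramble KD ATRX list, and no peak of either TERRA KD H3K9me3 list. Of the 41384 peaks of the first TERRA KD list, 566 (1.37%) met this rule and are called members or replicated ATRX gains outside H3K9me3. For comparison, the same list held 26852 other gains outside H3K9me3, which were seen in replicate 1 alone, and 1309 replicated gains inside H3K9me3. The remaining 10544 unreplicated gains inside the mark and 2113 peaks shared with a scramble KD list were not compared further.

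The ES cells came from a CAST/Ei x 129/Sv/Jae background and were grown in serum with LIF. They received a locked nucleic acid (LNA) oligonucleotide against TERRA (TERRA KD) or a scramble LNA (scramble KD) for 12 h. ATRX, H3K9me3 and G-quadruplexes (G4, with the BG4 antibody) were measured by ChIP-seq and open chromatin by ATAC-seq, with 2 libraries per condition and assay. The study calls the ATRX and G4 ChIP-seq libraries biological replicates, while the sources used here do not say this of the ATAC libraries or name what was separate, and the p-values below measure only the spread between these libraries. The lists hold no measure of TERRA itself, so its depletion was not checked here. Of 8 genes that mark ES cells, 7 or 8 had an ATAC peak within 1 kb of the transcription start site (TSS) in each library, and of 8 genes that mark fibroblast feeders 4 or 5 had one. The study reports that feeder cells were removed before the transfection and that feeder-conditioned medium was used. An open TSS is not a measure of expression. The G4 library of TERRA KD replicate 2 stood apart from the other 3 at GC-rich regions, as described below. The differences between conditions in the share and rank of G4 peaks on members are given with and without it. Counts of G4 calls by condition, and the rank difference relative to other gains, are given only with it.

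ATRX binds repeats that can fold into G4 structures, which are stacks of guanines held together within one strand, and with its partner DAXX it deposits the histone variant H3.3 at telomeres and pericentric heterochromatin. H3K9me3 marks silent heterochromatin and many repeats. TERRA is the noncoding RNA transcribed from chromosome ends, and it can bind ATRX and chromatin sites within chromosomes.

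The members differed in sequence, and 8 are shown as runs of 200 bases of GRCm38/mm10 from the RefSeq assembly, forward strand, 5′ to 3′. The first 4 held a G4 motif, taken as at least 4 runs of at least 3 G with loops of 1 to 7 bases between them, or the same in C for the other strand, and capitals mark every match in the window. The Pdgfra and Camk1 regions lay at promoters, whereas the region nearest to Gpr50 and the one nearest to Ahcyl2, in an intron of Smo, lay over 1 kb from any TSS and had a G4 peak in all 4 libraries.
Pdgfra (chr5:75155888-75156087): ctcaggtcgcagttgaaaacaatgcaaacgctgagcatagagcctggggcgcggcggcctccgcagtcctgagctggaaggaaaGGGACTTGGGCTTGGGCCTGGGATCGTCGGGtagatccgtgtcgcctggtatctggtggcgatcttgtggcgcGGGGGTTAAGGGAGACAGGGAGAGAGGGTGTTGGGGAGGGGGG
Camk1 (chr6:113343614-113343813): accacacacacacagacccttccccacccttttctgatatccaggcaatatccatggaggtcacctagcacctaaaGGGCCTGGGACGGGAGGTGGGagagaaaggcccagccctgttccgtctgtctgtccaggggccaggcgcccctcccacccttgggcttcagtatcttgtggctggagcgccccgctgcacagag
Gpr50 (chrX:71645019-71645218): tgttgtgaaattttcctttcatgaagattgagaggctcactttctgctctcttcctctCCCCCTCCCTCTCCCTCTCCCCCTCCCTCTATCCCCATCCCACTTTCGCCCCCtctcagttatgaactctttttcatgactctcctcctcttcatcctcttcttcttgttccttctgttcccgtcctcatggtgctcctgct
Ahcyl2 (chr6:29759073-29759272): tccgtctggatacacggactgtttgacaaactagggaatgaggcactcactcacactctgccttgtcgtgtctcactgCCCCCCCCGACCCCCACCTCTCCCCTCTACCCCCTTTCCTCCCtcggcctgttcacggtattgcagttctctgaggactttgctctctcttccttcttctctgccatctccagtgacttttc

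The next pair shows a member near Gse1 that had a G4 peak in both scramble KD libraries and neither TERRA KD library, and a member 9189 bp from the TSS of H1f7 that ranked second in ATRX enrichment. Neither held the motif in the form above, and capitals mark every run of at least 3 G or 3 C. In the H1f7 region the stretch CCCCttGGG recurred at a fixed spacing.
Gse1 (chr8:120516088-120516287): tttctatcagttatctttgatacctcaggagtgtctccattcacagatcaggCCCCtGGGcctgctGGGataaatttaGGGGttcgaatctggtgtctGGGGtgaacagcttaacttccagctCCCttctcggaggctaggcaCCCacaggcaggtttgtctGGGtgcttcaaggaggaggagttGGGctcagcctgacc
H1f7 (chr15:98247846-98248045): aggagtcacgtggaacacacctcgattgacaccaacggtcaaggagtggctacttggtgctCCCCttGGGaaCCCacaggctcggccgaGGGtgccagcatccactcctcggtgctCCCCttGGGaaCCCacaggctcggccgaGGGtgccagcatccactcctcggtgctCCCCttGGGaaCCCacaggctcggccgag

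The last pair shows simple repeats that some members held. Capitals mark a CA repeat of 40 bases in an intron of Nfix, where the nearest TSS is that of G430095P16Rik, and the first copy of a 31-base unit that recurred in an intron of Usp6nl. Over the whole Usp6nl member, 92.8% of bases equalled the base 31 positions further on.
G430095P16Rik (chr8:84744265-84744464): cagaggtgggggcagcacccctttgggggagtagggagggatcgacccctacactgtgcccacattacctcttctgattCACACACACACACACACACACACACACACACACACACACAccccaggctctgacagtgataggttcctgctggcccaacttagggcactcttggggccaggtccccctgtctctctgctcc
Usp6nl (chr2:6327482-6327681): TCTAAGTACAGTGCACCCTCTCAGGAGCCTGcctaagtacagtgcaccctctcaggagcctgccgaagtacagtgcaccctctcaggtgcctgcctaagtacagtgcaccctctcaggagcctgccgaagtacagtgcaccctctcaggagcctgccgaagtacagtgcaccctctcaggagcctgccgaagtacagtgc

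ATRX enrichment was weak at most members, and its values are given as a description because they chose the regions. In TERRA KD replicate 1 the members held 4 to 2515 ChIP tags with a median of 5, at a fold enrichment over input of 3.14 to 26.67 with a median of 9.50. In TERRA KD replicate 2 they held 8 to 2881 tags with a median of 12, at a fold enrichment of 2.84 to 75.98 with a median of 4.26. The first of these libraries had 4104486 tags after filtering and the second 14878010, against 6606064 and 15506154 in scramble KD. The typical member therefore rested on a handful of tags. In replicate 1, 412 members (72.8%) had 6 or fewer tags, and 68 members had 10 or more in both libraries. The false discovery rate the authors' peak caller gave in that list was 100% for 442 members and under 20% for 26. By fold enrichment, 10 members were in the top 10% of both TERRA KD lists. The TERRA KD lists held 41384 and 21718 ATRX peaks and the scramble KD lists 7321 and 13652. A gain is therefore a peak with no call in scramble KD, and not a measured difference in ATRX level.

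In ATRX values, members just inside the rule resembled the peaks just outside it. The length shared by the overlapping TERRA KD peaks was 3 to 5914 bp with a median of 321 bp, and the summits lay a median of 239 bp apart. The 36 members that shared under 50 bp had a median of 5 tags and 9.50-fold enrichment in replicate 1. The 76 other gains with a replicate 2 peak within 100 bp but no overlap had the same medians, 5 tags and 9.50-fold. All 566 members and all 26852 other gains outside H3K9me3 also had medians of 5 tags and 9.50-fold in replicate 1. By these medians members were no stronger than unreplicated gains, at the edge of the rule or elsewhere. A scramble KD ATRX peak lay within 1 kb of 3 members in replicate 1 and of 15 in replicate 2, and a TERRA KD H3K9me3 peak within 1 kb of 19 and 50 members.

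The ATRX tags were spread unevenly over the members. The 16 members with 30 or more tags in TERRA KD replicate 1 held 52.3% of all tags on members in that library, of which a single member held 34.8%. Without it, the other 15 held 26.7% of the tags that remained. An ATAC peak was present in all 4 libraries at 13 of the 16. The single highest member covered Rn18s-rs5 (chr17:39842949-39848875), a copy of 18S ribosomal RNA sequence, with 2515 and 2881 tags at 4.14-fold and 9.24-fold enrichment in TERRA KD replicates 1 and 2. A region near Axin2 (chr11:109011336-109012520), 91579 bp from its TSS by the centre, held 254 and 198 tags at 6.79-fold and 75.98-fold. Regions near Filip1l, in an intron of Cmss1 (chr16:57390866-57391790, 146 and 137 tags), and in an intron of Cdk8 (chr5:146260946-146261687, 125 and 101 tags) had similar depth in both libraries. Cdk8 encodes the kinase of the Mediator complex. The Axin2, Filip1l and Cdk8 members had ATAC peaks of 23.2-fold to 27.6-fold in every library. The conditions overlapped at Axin2 and Filip1l, while at Cdk8 the scramble KD values (25.4-fold and 25.5-fold) lay above the TERRA KD values (23.5-fold and 24.6-fold). Such ATAC values were not shared by all deep members. A member near Rny3 (chr6:47766782-47768879) held 125 and 348 ATRX tags. Its ATAC enrichment was 4.20-fold and 4.32-fold in scramble KD and 3.82-fold and 3.83-fold in TERRA KD, and it had H3K9me3 in 1 scramble KD library.

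Ribosomal RNA genes accounted for 8 members in all. Apart from Rn18s-rs5 they were 5S rRNA genes between chr8:123557255 and chr8:123613914, and chromosome 8 has 48 annotated rRNA genes in all. The 5S members (n-R5s111, n-R5s113, n-R5s115, n-R5s121, n-R5s131, n-R5s141 and n-R5s144) held 24 to 48 tags in replicate 1 and 9 to 46 in replicate 2. Such copies are nearly identical and share reads, so which copy was bound, and how many were, is uncertain.

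The 5 members that ranked highest by the worse of their 2 within-list ranks of ATRX enrichment lay near Gimd1, H1f7, Gm13272, Gm13287 and Pudp. The Gimd1 member (chr3:132621514-132622224) had 21 and 18 ATRX tags at 21.67-fold and 8.52-fold. Its G4 enrichment was 94.32-fold and 27.68-fold in scramble KD and 17.66-fold and 13.67-fold in TERRA KD, with no ATAC peak in any library. Fold values are not scaled between lists. Within its own list, where a percentile of 100 is the strongest, this G4 peak stood at 100 and 100 in scramble KD. In TERRA KD it stood at 95.5 and 99.8, so it was near the top of every list. The H1f7 member (chr15:98247773-98248118) had 7 and 12 ATRX tags at 22.16-fold and 6.39-fold. H1f7 encodes a linker histone of the testis. G4 enrichment at the H1f7 member was 20.69-fold and 19.42-fold with scramble KD and 20.62-fold and 10.66-fold with TERRA KD, so the conditions overlapped. The Pudp member, 64673 bp from the TSS by its centre, had 23 and 14 tags at 16.91-fold and 6.39-fold and carried H3K9me3 in both scramble KD libraries. Gm13272 and Gm13287 are predicted genes of the type I interferon cluster on chromosome 4, and their members (chr4:88779538-88780285 and chr4:88802557-88803923) lay over the TSS with an ATAC peak in every library. The genes of this cluster resemble each other, so the assignment of reads between them is uncertain.

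The members were concentrated on chromosomes 6 and 8. Chromosome 8 held 142 members (1.10 per Mb) and chromosome 6 held 114 (0.761 per Mb), together 45.2% of all 566. Each of the other autosomes held between 0.0875 and 0.192 members per Mb. The density on chromosomes 6 and 8 was thus 6.77 times that on the other autosomes. The X chromosome held 13 members, an unplaced sequence 1 and the Y chromosome none. The study describes the ES cells as XX, and no list has more than 2.99 peaks per Mb on the Y chromosome.

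The ATRX lists themselves were denser on chromosomes 6 and 8, in scramble KD as well as TERRA KD. The same ratio of peaks per Mb was 2.62 and 3.95 in the scramble KD ATRX lists and 1.80 and 3.58 in the TERRA KD ATRX lists. It was 1.31 to 1.89 in the 4 H3K9me3 lists, 1.14 to 1.37 in the G4 lists and 1.20 to 1.24 in the ATAC lists. Among the gains outside H3K9me3, 4.18% on chromosome 6 and 5.50% on chromosome 8 were members, against 0.912% to 1.89% on the other autosomes. The peak lists hold no count of chromosome copies, and the part of copy number in this pattern was not tested.

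**Figure D1:**
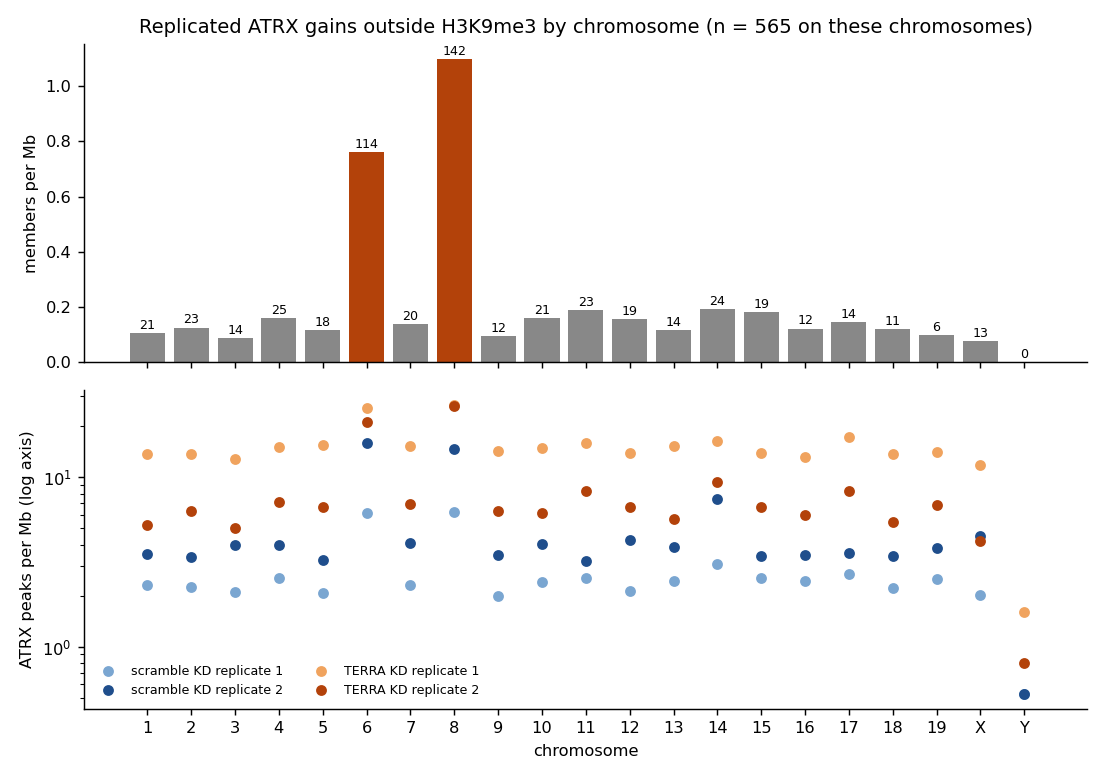
Replicated ATRX gains outside H3K9me3 per Mb of each chromosome. In the upper panel bars give members per Mb with their number above, and the lower panel gives the peaks per Mb of each of the 4 ATRX lists on a log axis. Chromosomes 6 (0.761 per Mb) and 8 (1.10 per Mb) stand above all other autosomes, which range from 0.0875 to 0.192 per Mb.

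The members on both chromosomes were spread along the whole length. On chromosome 6 every one of 15 bins of 10 Mb held a member, with at most 16 in a bin. On chromosome 8, 12 of 13 bins held one, and the bin from 120 to 130 Mb, which includes the 5S rRNA genes and Gse1, held 34. The median gap to the next member was 1077 kb, with 29 of 545 gaps under 10 kb and 78 under 100 kb. Whether members lay closer together than an even scatter was not tested.

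The 310 members on all other chromosomes resembled those on chromosomes 6 and 8 in GC content, with medians of 50.9% and 51.0%. The share within 1 kb of a TSS was 11.9% on the other chromosomes and 16.8% on chromosomes 6 and 8, and the share with a G4 motif 13.9% and 19.1%. An ATAC peak was more common in each library on the other chromosomes (35.8% and 39.7% of members in scramble KD, 43.5% and 43.2% in TERRA KD) than on chromosomes 6 and 8 (25%, 31.3%, 31.6% and 34.4%).

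With respect to genes, members were mostly intergenic or intronic, and a larger share lay at promoters than among other gains. By the annotation, 242 members lay between genes, 234 in introns, 39 in promoters (1 kb upstream to 100 bp downstream of a TSS), 26 in coding exons, 14 in 3′ UTRs and 5 in 5′ UTRs. Within 1 kb of a TSS were 80 members, 14.1% (95% Wilson interval 11.5 to 17.2%), and the background in all TERRA KD replicate 1 ATRX peaks was 5.18%. The share was 7.06% among other gains outside H3K9me3 and 2.60% among replicated gains inside it. These shares are given as a description, as regions of one library are not replicates of a condition. Of the 80 members, 36 covered the TSS itself and 43 were on chromosomes 6 and 8.

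These 80 members touched 89 genes, 0.34% of the 26180 annotated genes, and comprised 63 protein-coding genes, 11 long noncoding RNAs, 10 rRNAs, 4 miRNAs and 1 transcribed pseudogene. The miRNAs were Mir137, Mir129-1, Mir200a and Mir429. Mir200a and Mir429 belong to the miR-200 family, which holds back the epithelial-mesenchymal transition, and share a cluster on chromosome 4. The Mir429 member (chr4:156053767-156054395) had 5 and 17 ATRX tags, a G4 peak in 1 library of each condition and no ATAC peak. The Mir137 member (chr3:118434384-118434748) had 4 and 9 tags, with ATAC peaks of 4.17-fold and 6.54-fold with scramble KD and 5.69-fold and 7.05-fold with TERRA KD.

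By ATRX rank, the promoter members at Zdhhc7, Pmp22 and Rasa3 took places 11, 58 and 69 of 566. At Zdhhc7, a palmitoyltransferase (chr8:120101374-120101680), ATRX had 5 and 12 tags at 14.29-fold and 5.68-fold. At Pmp22, a protein of peripheral myelin (chr11:63132552-63133087), it had 5 and 13 tags at 11.43-fold and 4.97-fold. At Rasa3, a GTPase-activating protein of Ras-family proteins (chr8:13677328-13677663), it had 4 and 13 tags at 11.43-fold and 4.97-fold. The promoters of Zdhhc7, Pmp22 and Rasa3 each had a G4 peak in both scramble KD libraries and in TERRA KD replicate 1, and none in TERRA KD replicate 2. Rasa3 had an ATAC peak in every library (9.64-fold and 11.88-fold in scramble KD, 9.17-fold and 11.71-fold in TERRA KD), whereas Zdhhc7 and Pmp22 lacked one in scramble KD replicate 1.

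Pdgfra, the receptor alpha for platelet-derived growth factor, had a member over its TSS (chr5:75155577-75156534) with 11 and 10 ATRX tags. Its G4 enrichment was 13.55-fold and 4.21-fold with scramble KD and 7.32-fold and 4.71-fold with TERRA KD, and its ATAC enrichment 9.19-fold and 8.51-fold against 9.67-fold and 6.29-fold. Both readouts overlapped between conditions. Slc6a6, the taurine transporter, and Fbln2, an extracellular matrix protein, had members on chromosome 6. The Slc6a6 member lay 627 bp inside the gene with 5 and 12 tags, and the Fbln2 member covered the TSS with 11 and 11 tags. Nf2, which encodes the tumour suppressor Merlin, had a member upstream (chr11:4850300-4850931) with 5 and 10 tags, no G4 or ATAC peak, and H3K9me3 in 1 scramble KD library. Igdcc4, Dmrtc1c1, Meak7, Abhd6, Gm30244, Aff4, Aktip, Gm3411, Ankrd33b, Jade1, 6720489N17Rik and Gm15222 completed this group together with genes described elsewhere, with 4 to 21 tags in replicate 1. Aff4 is a scaffold of the super elongation complex and Jade1 a subunit of the HBO1 acetyltransferase complex. Aktip acts at telomeres and in vesicle transport, and its member (chr8:91132407-91132900) had 6 and 8 tags with no G4 or ATAC peak in any list.

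Of 50 lineage transcription factors, Sox1 and Lhx1 had a member within 1 kb of the TSS (4.00% of the list, against 0.34% of all annotated genes), and Gata2 and Sox1 had one over the gene body (4.00%, against 1.15%). Sox1 marks early neural cells, and its TSS member (chr8:12395835-12396467) had 5 and 9 ATRX tags, G4 peaks in scramble KD (12.82-fold and 5.39-fold) and in TERRA KD replicate 1 (6.57-fold), and an ATAC peak in replicate 2 of each condition. Lhx1 acts in mesoderm and gastrulation, and its member (chr11:84525667-84526080) had 4 and 8 tags and an ATAC peak in every library. Gata2 is a factor of blood precursors, and the member in its 3′ UTR (chr6:88205498-88206057) had 6 and 19 tags.

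Over the gene body, 300 genes (1.15% of all annotated genes) held a member, and 318 members (56.2%) lay over one. In the other signalling lists these were Lef1 and Tcf7l1 of 32 Wnt genes, both of them factors that bind DNA for this pathway, and Bmp4 and Acvr2b, a ligand and a receptor, of 32 TGF-beta and BMP genes. Among 48 chromatin regulators they were Tet2 and Tet3, which oxidise methylcytosine, and Jarid2, a cofactor of Polycomb repressive complex PRC2. Unc5b, a netrin receptor, and Cntnap2, a neuronal adhesion protein, were found among 40 axon guidance and synaptic adhesion genes. None of 26 pluripotency genes, 32 FGF, LIF and MAPK genes, 26 G4 and telomere factors and 38 cell cycle and apoptosis genes had a member at the TSS or over the body. With lists of this size, the background of 1.15% amounts to less than 1 gene per list. This background was not adjusted for gene length. Genes with a member over the body had a median length of 39.7 kb against 13.5 kb for all genes. The median was 34.4 kb in the Wnt list, 50.5 kb in the TGF-beta and BMP list, 55.4 kb in the chromatin list and 249.4 kb in the axon list. The lineage factor list was shorter, with a median of 5.52 kb.

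The Jarid2 member stood apart in depth, with 46 and 40 ATRX tags at 8.24-fold and 19.88-fold (chr13:44869494-44870105) and ATAC peaks of 21.9-fold and 21.6-fold with scramble KD and 20.7-fold and 19.997-fold with TERRA KD. The Lef1 member (chr3:131185863-131186247) had 4 and 11 ATRX tags, and its G4 enrichment was 18.97-fold and 9.19-fold with scramble KD and 9.75-fold and 3.42-fold with TERRA KD. Cdh13, Gse1, Mroh2a and Wwox held 3 members each. Cdh13, a cadherin, and Wwox, an oxidoreductase gene at a fragile site, are 1041 and 913 kb long, whereas Gse1 and Mroh2a are 92.5 and 35.3 kb.

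G4 peaks covered members more often than other gains in every library. In scramble KD a G4 peak overlapped 29.2% (95% Wilson interval 25.6 to 33.0%) and 68.2% (64.2 to 71.9%) of members, and in TERRA KD 40.3% (36.3 to 44.4%) and 31.1% (27.4 to 35.03%). Other gains outside H3K9me3 had 10.9% and 36.4% with scramble KD and 15.5% and 17.2% with TERRA KD. These intervals cover counting error only. The members were higher by 22.2 ± 7.84 percentage points (SD, n = 4 libraries), in 4 of 4 libraries (exact sign-flip permutation test, two-sided, p = 0.125, the smallest p that 4 libraries allow). With the other gains weighted to the GC content of the members, the difference was 8.93 percentage points. Replicated gains inside H3K9me3 had 24.6%, 73.8%, 45.7% and 38.7% in the same order, and the difference of members from them, -3.50 ± 5.46 percentage points (exact sign-flip permutation test, p = 0.25), was within the spread between libraries. Members had a median length of 498.5 bp and gains inside H3K9me3 of 792 bp. In 500 bp windows around the centres this difference was -0.337 percentage points.

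Between conditions the G4 share of members was not distinguishable. It was 48.7 ± 27.6% (SD, n = 2) in scramble KD and 35.7 ± 6.50% in TERRA KD, and both TERRA KD values lay between the scramble KD values. The difference, -13.0 percentage points, had p = 1 in an exact permutation test of 2 against 2 libraries, where the smallest p is 0.333. It rested on single libraries: without replicate 2 of each condition it was 11.1 percentage points, and without replicate 1 it was -37.1. Without TERRA KD replicate 2 alone it was -8.39. The scramble KD G4 lists held 140119 and 389434 peaks and the TERRA KD lists 173699 and 225024, while the scramble KD libraries had 2961038 and 24588605 tags, the TERRA KD libraries 5759282 and 13127555. Replicate 2 had more peaks and tags than replicate 1 in each condition, with a higher share of members in scramble KD and a lower one in TERRA KD. The part of depth in the difference was not tested.

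**Figure D2:**
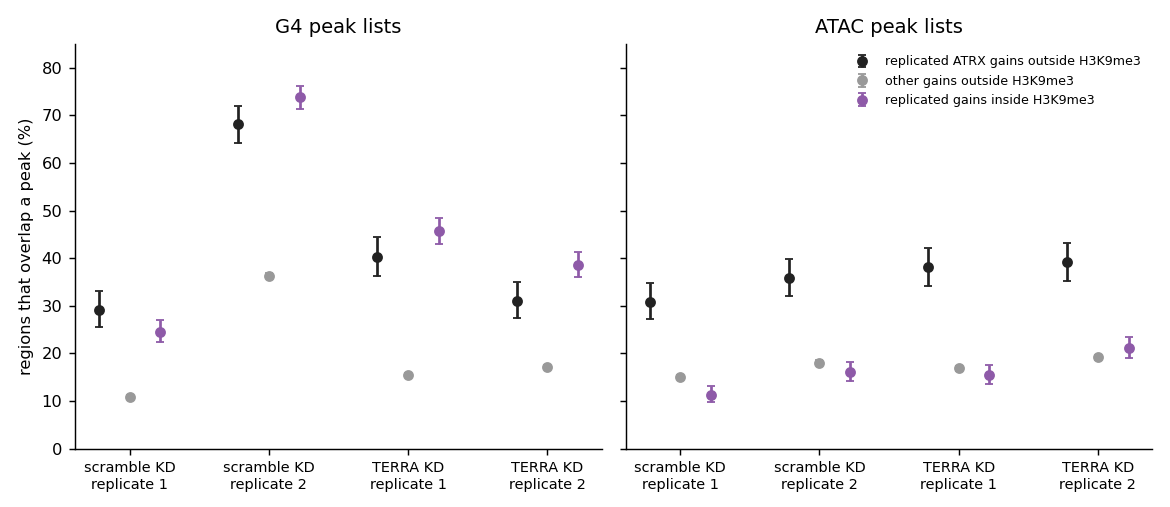
Share of regions overlapped by a G4 or an ATAC peak in each of the 4 libraries, for members, other gains outside H3K9me3 and replicated gains inside H3K9me3. Points are shares of regions in percent and bars 95% Wilson intervals. For ATAC the members (30.9% to 39.2%) lie above both other sets, and for G4 they lie above other gains and close to gains inside H3K9me3.

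A G4 call that was present in both libraries of 1 condition alone was uncommon on members. A G4 peak was present in all 4 libraries at 70 members (12.4%, against 3.85% of other gains) and in none at 157 (27.7%, against 57.5%). A G4 peak in both scramble KD libraries and neither TERRA KD library was seen at 8 members (1.41%, background 0.901% of all TERRA KD replicate 1 ATRX peaks). The reverse was seen at 2 members (0.353%, background 0.256%). The count for scramble KD alone depended on the peaks taken. With G4 peaks of -log10 p of at least 5 it was 22 members (3.89%, background 0.747%, other gains 0.778%), and with equal numbers of top-ranked peaks in both conditions it was 30 (5.30%, background 0.935%, other gains 0.883%). These counts were not matched for GC content. Regions of 60% GC or more made up 15.7% of members and 3.39% of other gains. In that band TERRA KD replicate 2 had fewer G4 peaks than every other G4 library in both sets. The part of GC content and of this library in the counts was not tested.

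The 8 members that lost the G4 call included 3 within 1 kb of a TSS, at A730013G03Rik, Asb6 and Bola3. Asb6 encodes a substrate receptor of a ubiquitin ligase, and at its TSS (chr2:30828018-30828534) G4 enrichment was 13.55-fold and 5.13-fold in scramble KD while ATAC enrichment was 6.74-fold and 6.93-fold with scramble KD and 6.42-fold and 6.72-fold with TERRA KD. Bola3 encodes a mitochondrial factor for iron-sulfur clusters, and its member (chr6:83349686-83350159) had 9.67-fold and 8.93-fold G4 enrichment in scramble KD and an ATAC peak in scramble KD replicate 2 alone. A730013G03Rik (chr1:192833967-192834387) had G4 peaks of 10.84-fold and 3.83-fold in scramble KD and ATAC peaks in all 4 libraries. The other 5 lay near Gse1, the sequence with runs of G and C shown above, Niban3 (in a coding exon of Pgls), Dip2c, Nova2 and Zmynd11, and were named after their values were seen. The 2 members with the reverse pattern lay near Mir7687 within the Gse1 locus (chr8:120548532-120549316, 6.17-fold and 3.26-fold in TERRA KD) and near Ces5a (chr8:93533455-93533985, 4.04-fold and 6.26-fold). Gse1 thus held a member of each kind.

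The G4 peaks on members held different places within the lists of the 2 conditions. Ranked by fold enrichment, with 100 as the strongest peak of a list, the median G4 peak on a member stood at the percentile 69.8 and 74.0 with scramble KD and 37.1 and 32.5 with TERRA KD. The conditions did not overlap, and the difference was -37.1 percentile points (71.9 ± 2.99 against 34.8 ± 3.29, SD, n = 2; exact permutation test, p = 0.333, the smallest possible). The lists differ in length (140119 to 389434 peaks) and cover different members (165 and 386 with scramble KD, 228 and 176 with TERRA KD), so a percentile gives a place within a list and not a change in G4 level. Other gains outside H3K9me3 stood at 55.7 and 57.4 with scramble KD and at 43.1 and 39.9 with TERRA KD. Replicated gains inside H3K9me3 stood at 75.3 and 83.5 with scramble KD and at 51.9 and 39.0 with TERRA KD. A lower place in TERRA KD was thus not particular to members. Relative to other gains, members were higher by 14.1 and 16.6 percentile points in scramble KD and lower by 5.96 and 7.39 in TERRA KD, a difference of -22.0 (exact permutation test, p = 0.333, the smallest possible). Without the members on chromosomes 6 and 8 the first difference was -19.97, and without TERRA KD replicate 2 it was -34.8.

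The difference depended on the value that ranked the peaks. By -log10 p the median percentiles were 76.6 and 89.4 with scramble KD and 77.4 and 73.5 with TERRA KD, a difference of -7.60, with overlapping conditions. By tags they were 84.1 and 91.8 with scramble KD and 93.7 and 93.8 with TERRA KD, a difference of 5.80 in the opposite direction. G4 peaks on members were therefore higher in tags than most of their list in every library. Fold enrichment is taken over input, the 2 G4 lists of a condition share 1 input library (23359214 tags in scramble KD and 19824848 in TERRA KD), and the condition and its input cannot be told apart.

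**Figure D3:**
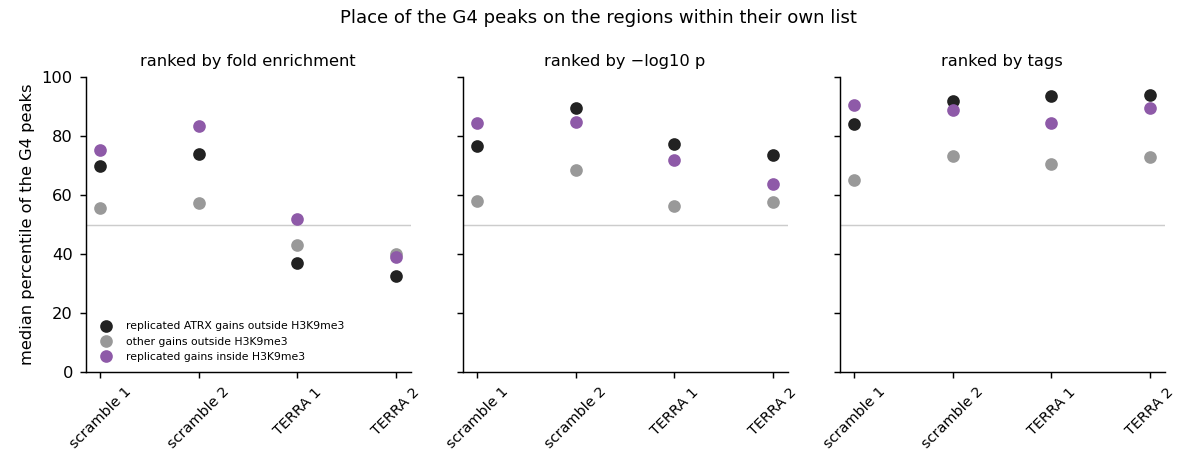
Median within-list percentile of the G4 peaks on members, on other gains and on replicated gains inside H3K9me3 in each library, ranked by fold enrichment, by -log10 p and by tags. Points are libraries and a percentile of 100 is the strongest peak of a list. The lists differ in length. By fold enrichment the members stand at 69.8 and 74.0 in the scramble KD lists and at 37.1 and 32.5 in the TERRA KD lists, and by tags at 84.1 and 91.8 and at 93.7 and 93.8.

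ATAC peaks also covered members more often than the other ATRX gains. An ATAC peak overlapped 30.9% (95% Wilson interval 27.3 to 34.8%) and 35.9% (32.0 to 39.9%) of members in scramble KD and 38.2% (34.3 to 42.2%) and 39.2% (35.3 to 43.3%) in TERRA KD. Other gains outside H3K9me3 had 15.0%, 18.1%, 16.9% and 19.2% in the same order. The difference was 18.8 ± 2.39 percentage points (SD, n = 4 libraries, 4 of 4 libraries positive; exact sign-flip permutation test, p = 0.125, the smallest possible), and 5.60 with other gains weighted to the GC content of the members. Replicated gains inside H3K9me3 had 11.4% to 21.2%, and members were higher by 18.1 to 22.7 percentage points in the 4 libraries, with an SD of 1.96 (exact sign-flip permutation test, p = 0.125).

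Between conditions, the ATAC share of members was 33.4 ± 3.50% in scramble KD and 38.7 ± 0.750% in TERRA KD (SD, n = 2). The conditions did not overlap, and the difference was 5.30 percentage points (exact permutation test, p = 0.333, the smallest possible). Other gains moved by less, from 15.0% and 18.1% to 16.9% and 19.2%, and their conditions overlapped. Replicated gains inside H3K9me3 went from 11.4% and 16.2% (mean 13.8%) to 15.4% and 21.2% (mean 18.3%), and their conditions also overlapped. A higher mean share in TERRA KD was thus not particular to members. The TERRA KD lists held 86535 and 103911 ATAC peaks, and the scramble KD lists 78571 and 96994. When equal numbers of top-ranked peaks were taken from each list, the difference at members was 2.56 percentage points (exact permutation test, p = 0.667). The rank of the ATAC peaks on members by fold enrichment was 60.9 and 65.0 with scramble KD and 59.4 and 67.0 with TERRA KD, a difference of 0.242 within the spread.

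Most ATAC calls on members were shared by both conditions. An ATAC peak was present in all 4 libraries at 159 members (28.1%, against 12.3% of other gains and 9.55% of replicated gains inside H3K9me3) and in none at 307 (54.2%). It was present in both TERRA KD libraries and neither scramble KD library at 9 members (1.59%, background 0.790%). The reverse was seen at 2 members (0.353%, background 0.225%), near Fpgs, which encodes folylpolyglutamate synthase, and in an intron of Dnm2, which encodes a dynamin. Of the 9, BB283400, Gm14487 and Rnaset2b had the member within 1 kb of a TSS. The Rnaset2b member (chr17:6979451-6979895) had ATAC enrichment of 3.06-fold and 11.55-fold in TERRA KD and the BB283400 member (chr6:30175685-30176263) 2.34-fold and 4.44-fold. The others lay near Glp1r, Zfp663, Fam234b, Kif5b, Tmem176b and Gm15627, and all were named after their values were seen.

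G4 and ATAC peaks met on the same members. Each was present in at least 1 library at 210 members (37.1%, against 13.1% of other gains), and 108 members (19.1%, against 47.6%) had neither. Among the 159 members with ATAC in all 4 libraries, a G4 peak was present at 46.5% and 84.3% with scramble KD and at 62.9% and 22.0% with TERRA KD. Among the 307 with no ATAC peak it was present at 20.8% and 59.3% with scramble KD and at 28.3% and 35.5% with TERRA KD. TERRA KD replicate 2 was thus the one G4 library in which open members had fewer G4 peaks than members without ATAC.

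The same library stood apart at promoters. At the 80 members within 1 kb of a TSS, a G4 peak was present at 57.5% and 86.3% with scramble KD and at 71.3% and 21.3% with TERRA KD, and an ATAC peak at 57.5%, 70%, 72.5% and 71.3%. An ATAC peak was present in all 4 libraries at 46 of the 80. At the 486 members further from a TSS, TERRA KD replicate 2 had a G4 peak on 32.7% and TERRA KD replicate 1 on 35.2%, which is close by comparison.

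Both signals were centred on the members. A G4 peak covered the centre of 22.1% and 59.4% of members with scramble KD and 33.9% and 25.6% with TERRA KD, and 8.36%, 37.7%, 13.6% and 17.96% of positions 5 to 10 kb away. The ratio of centre to flank was 2.64 and 1.57 with scramble KD and 2.50 and 1.43 with TERRA KD. For ATAC it was 5.55 and 5.27 with scramble KD and 6.04 and 5.16 with TERRA KD, and for ATAC at other gains it was 3.66 to 3.89. The ATAC ratio of members was above that of other gains in each library.

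**Figure D4:**
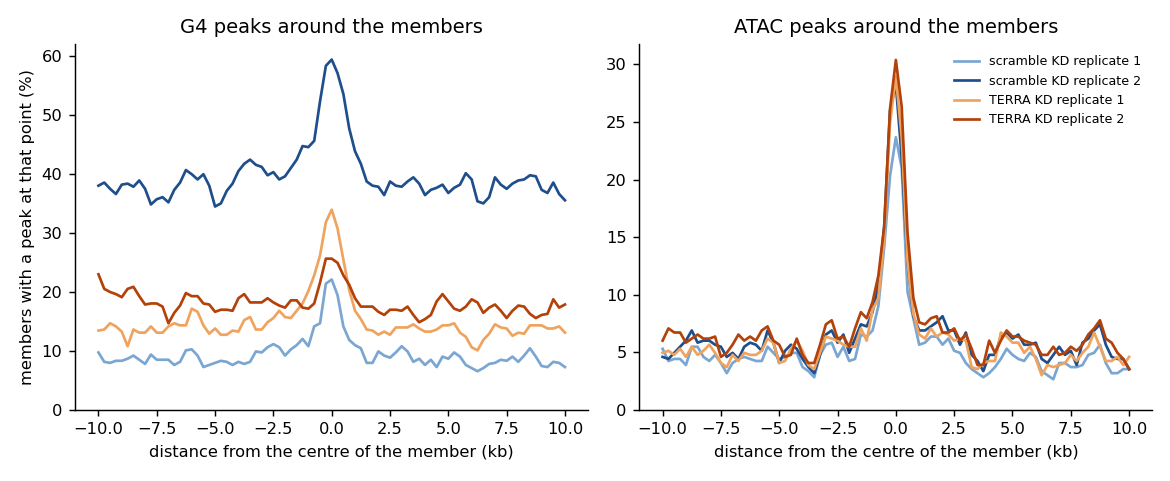
Percentage of members covered by a G4 or ATAC peak against the distance from the centre of the member, with one line per library. The coverage is highest at the centre in each library, and the ATAC coverage falls from 23.7% to 30.4% at the centre to 4.27% to 5.89% at 5 to 10 kb.

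Members were richer in G and C than other gains. The median GC content was 50.9% (quartiles 46.6 and 56.1%) in members, 46.2% in other gains outside H3K9me3 and 49.1% in replicated gains inside it. The ratio of observed to expected CpG was 0.267 in members, 0.198 in other gains and 0.521 in gains inside H3K9me3. Repeats covered a median of 16.9% of a member and 19.5% of another gain, but the whole of the median gain inside H3K9me3.

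The G4 share was higher at members of higher GC content. Members under 45% GC had a G4 peak in 9.57% and 22.3% of cases with scramble KD and 7.45% and 13.8% with TERRA KD. Members of 60% GC or more had one in 82.0% and 95.5% in scramble KD and 93.3% in TERRA KD replicate 1, but in 38.2% in TERRA KD replicate 2. In the band of 50 to 55% GC, which held 158 members, the shares were 19.6%, 82.3%, 34.8% and 38.6%. The low value of TERRA KD replicate 2 at high GC was also seen at other gains, where 64.5%, 86.4%, 80.3% and 33.2% of regions of 60% GC or more had a G4 peak. ATAC peaks covered 8.51% to 19.1% of members under 45% GC and 65.2% to 74.2% of members of 60% GC or more. In that highest band other gains had 70.1% to 75.1%, above the members in each library.

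**Figure D5:**
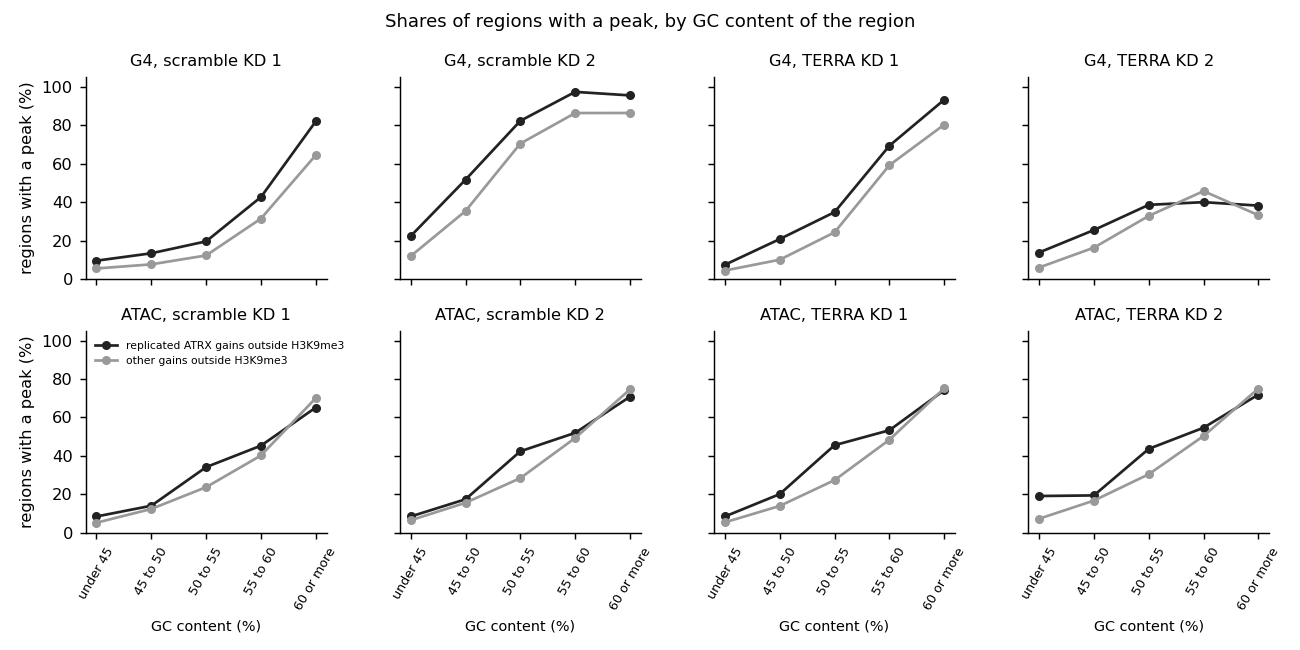
Share of members and of other gains with a G4 or ATAC peak by GC content of the region, with 1 panel per library and assay. The horizontal axis is the band of GC content and the vertical axis the percentage of regions. The G4 line of TERRA KD replicate 2 ends at 38.2% of members in the highest band, while the other 3 G4 lines end at 82.0% to 95.5%.

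A G4 motif lay in 92 members, 16.3% (95% Wilson interval 13.4 to 19.5%), against a background of 8.58% of all TERRA KD replicate 1 ATRX peaks. The share was 9.75% among other gains and 6.88% among replicated gains inside H3K9me3. Members with the motif had a G4 peak in 47.8% and 83.7% of cases with scramble KD and 67.4% and 40.2% with TERRA KD. Members without it had one in 25.5% and 65.2% with scramble KD and 35.02% and 29.3% with TERRA KD. A G4 peak was therefore more common on the motif, and most members with a peak had no motif in this form. A motif match is a property of the letters and not a measured structure.

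Other repeats were found in smaller numbers. The telomeric hexamer TTAGGG, searched on both strands, occurred at least once in 119 members (21.1%, against 17.4% of other gains and 33.7% of gains inside H3K9me3), and no member had more than 5 copies. A TG or CA repeat of 20 bp or more lay in 43 members (7.61%, against 4.38% and 1.92%), the longest of 326 bp. G4 peaks were present on 62.8% and 69.8% of these members in scramble KD and on 62.8% and 53.5% in TERRA KD. Tandem repeats, taken as at least 70% of bases equal at a shift of 10 to 150 bp, made up 23 members (4.07%, against 0.951% and 4.60%). They were 9 of the first 50 members by ATRX rank and 14 of the later 516. Gimd1, Pudp and Usp6nl, all shown or described above, were among the 9.

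H3K9me3 was present on few members in scramble KD as well. The rule used the TERRA KD lists alone, and 18 members (3.18%) had an H3K9me3 peak in scramble KD replicate 1 and 22 (3.89%) in replicate 2. In either scramble KD list it was present at 36 members, 6.36% (95% Wilson interval 4.63 to 8.68%), against 3.56% of other gains outside H3K9me3 and a background of 3.79% of all ATRX peaks outside TERRA KD H3K9me3. Among replicated gains inside H3K9me3 the share was 91.8%. No member has H3K9me3 in a TERRA KD list by construction, so a loss at these 36 is set by the rule and not tested.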

How the data were processed

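This was an analysis of 16 deposited peak lists: ATRX, H3K9me3 and G4 ChIP-seq and ATAC-seq, each with 2 scramble KD and 2 TERRA KD libraries, out of 22 samples that include 6 inputs. Per the submitters' processing notes, the authors used Trim Galore 0.5.0, Bowtie2 2.3.4.1, SAMtools 1.9, deepTools 3.1.1, MACS2 and mm10. Per the file headers, peaks were called per library at p 0.01 with MACS 1.4.3 (ATRX, H3K9me3) or 1.4.2 (G4) against input, and with MACS 2.2.7.1 without control for ATAC. The ATRX, H3K9me3 and G4 lists, as deposited by the authors, give for each peak the tag count, a score of minus 10 times log10 p, the fold enrichment and a false discovery rate in percent. The ATAC lists, as deposited by the authors, give the pileup signal, -log10 p and fold enrichment. Libraries held 2961038 to 24588605 tags after filtering, and read positions were not analysed here. The depth limits which weak peaks were called.

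The members and gene lists were chosen with earlier results of these data known. Peaks were compared by overlap of at least 1 bp with Python 3.11.15, numpy 2.4.6, pandas 2.3.3, scipy 1.17.1, matplotlib 3.10.9 and pysam 0.24.0, on RefSeq GRCm38/mm10 sequence and annotation (45756 curated transcripts of 26180 genes), and the code was tested on simulated data. Where several peaks overlapped a region, the strongest was used. Percentiles were taken within each list. Conditions were compared by exact permutation of 2 against 2 libraries, and sets of regions by exact sign flips over 4 libraries, two-sided. Regions were not treated as replicates. Genes were named if they were among the first 25 with a member within 1 kb of the TSS, ordered by the worse of the 2 ATRX ranks, or belonged to a gene list with a member (up to 4 per list), or lost the G4 call near a TSS (up to 6), or were nearest to the 5 strongest members. Members with 30 or more tags, rRNA genes, miRNAs, genes with several members and regions with printed sequence were added after their values were seen. Alternatives changed the overlap (50%), thresholds, TSS window (0.5 and 2 kb), motif loops (12 bases) and libraries.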

Additional observations from a re-analysis of the deposited data

How the results depend on the processing

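Of 158 repeated values, 117 were labelled the same, 29 moved and 12 reversed. A difference was the same if it kept its sign, whatever its p-value. A share was the same if it stayed inside the Wilson interval of its main value. A count was the same if it stayed near its main value, as 409 members did at 50% overlap. The 117 include the replicate block, which leaves differences unchanged. The member count was 43 with ATRX -log10 p of at least 3 in both lists, and 310 without chromosomes 6 and 8. The G4 share difference between conditions ranged from -37.1 to 11.1 when a replicate was left out. The G4 difference from gains inside H3K9me3 reversed to 7.28 (ATRX -log10 p of at least 3), 2.03 (50% overlap) and 0.744 (regions from TERRA KD replicate 2). The G4 rank difference reversed by tags, to 5.80, and that relative to other gains to 3.18. The ATAC rank difference, close to 0, reversed to -4.23 (ATRX -log10 p of at least 3), -1.31 (50% overlap), -0.329 (ATAC -log10 p of at least 5), -2.82 (ranked by -log10 p) and -0.282 (by pileup), and ranged from -1.58 to 2.06 without 1 replicate. Members that lost the G4 call numbered 1, 5, 22, 30 and 5 with ATRX -log10 p of at least 3, 50% overlap, G4 -log10 p of at least 5, equal numbers of top-ranked peaks, and no chromosomes 6 and 8. The share of all members within 1 kb of a TSS was 23.3% with ATRX -log10 p of at least 3, 10.6% at 0.5 kb, 19.6% at 2 kb and 11.1% for protein-coding genes. H3K9me3 in scramble KD was found on 9.30% and 8.80% (ATRX -log10 p of at least 3, 50% overlap), and the G4 motif on 32.6%, 22.0% and 28.1% (ATRX -log10 p of at least 3, regions of replicate 2, loops of up to 12 bases). The cause was not tested. The settings without chromosomes 6 and 8, without members of 30 or more tags, by GC weighting, in 500 bp windows, by other ranks and without TERRA KD replicate 2 were chosen after seeing the data.

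Replicate numbers were shared between conditions, and the correlation of same-numbered deviations was 0.171 for G4 and 0.0743 for ATAC over 41384 regions. With only 2 pairs the numbers were taken as names. The replicate block left every difference between conditions as it was (-13.0 and 5.30 percentage points for the G4 and ATAC shares, -37.1 and 0.242 for the ranks), with exact p of 1, 0.5, 0.5 and 1, where 0.5 is the smallest possible. Depth limits all shares, since a weak peak can be missed.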
